A study of Homo sapiens with 6 samples.

Results

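The snoRNA host genes and snoRNAs of Raji cells were compared between bryostatin-treated and DMSO-treated cells. Host genes were the rows of the deposited table with a symbol of SNHG followed by a digit, or GAS5, which gave 26 rows. snoRNAs were the rows with the biotype snoRNA and a mean of at least 1 FPKM over all libraries, which gave 57 of 943 such rows. Together these are 83 of 58735 genes. FPKM, a fragment number scaled to gene length and to library depth, is the unit of the deposited values. The snoRNAs were thus chosen by their mean FPKM, and the treatment was not used. SNORD124 and SNORA7B lay just above this minimum at 1.01 and 1.05 FPKM, and 2 rows named RF00275 and RF00134 lay just below at 0.984 and 0.969 FPKM.

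Raji is a B-cell line from a Burkitt lymphoma, and the labels give a GFP and firefly luciferase reporter for every sample. The treated cells received bryostatin-1 at 1 nM, a compound that acts on protein kinase C, and the others received DMSO, a solvent. Both were kept overnight at 37 °C in RPMI medium with serum. Polyadenylated RNA was sequenced from 3 libraries of bryostatin-treated cells and 3 libraries of DMSO-treated cells. Separate cultures are not stated in the labels, and the p-values cover only the spread among these libraries, which may be technical. Reads on genes, recovered from the FPKM values, numbered 19405370 to 24468270 per library. All 7 B-cell markers examined were above 1 FPKM, whereas none of the 12 T-cell, myeloid and fibroblast markers reached it, and CD2, COL1A2 and PDGFRB were listed at 0.

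snoRNAs are short nucleolar RNAs that guide the chemical modification of ribosomal and small nuclear RNA or take part in cutting the ribosomal RNA precursor. The C/D type pairs with its target and directs ribose methylation, and the H/ACA type directs the conversion of uridine to pseudouridine. Most human snoRNAs are released from introns of other genes after splicing. Some of those genes encode ribosomal proteins or translation factors, and others, the SNHG genes and GAS5, give spliced transcripts that are mostly not translated into protein. Many spliced SNHG transcripts are short-lived because nonsense-mediated decay degrades them.

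The sequences of 7 snoRNAs on which the results below turn are shown in DNA letters from GENCODE release 29, with hg38 coordinates. They are 5 C/D and 2 H/ACA snoRNAs taken for their differences or for lying inside an SNHG gene. In C/D snoRNAs the capitals mark the C box letters TGATGA within the first 20 bases and the D box letters CTGA within the last 20, and in H/ACA snoRNAs the letters ACA within the last 8. SNORD99 and SNORD93 hold no exact TGATGA and SNORA74D no ACA in these windows.
SNORD104 (chr17:64146083-64146152, plus strand, in SNHG25): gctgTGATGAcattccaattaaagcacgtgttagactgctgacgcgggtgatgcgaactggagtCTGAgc
SNORD99 (chr1:28578749-28578822, minus strand, in SNHG12): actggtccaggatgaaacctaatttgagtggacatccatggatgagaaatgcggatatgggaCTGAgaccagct
SNORD93 (chr7:22856613-22856686, plus strand, in SNHG26): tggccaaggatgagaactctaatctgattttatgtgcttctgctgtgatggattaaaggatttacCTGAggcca
SNORD101 (chr6:132815307-132815379, plus strand, in RPS12): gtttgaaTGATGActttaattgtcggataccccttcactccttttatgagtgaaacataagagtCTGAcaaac
SNORD20 (chr2:231456444-231456523, minus strand, in NCL): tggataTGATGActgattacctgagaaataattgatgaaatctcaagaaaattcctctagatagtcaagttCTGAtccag
SNORA74D (chr5:139276180-139276320, plus strand, in SNHG4): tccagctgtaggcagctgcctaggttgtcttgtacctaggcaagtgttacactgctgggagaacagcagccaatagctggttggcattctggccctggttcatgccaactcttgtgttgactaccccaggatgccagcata
SNORA73B (chr1:28508559-28508762, plus strand, in SNHG3): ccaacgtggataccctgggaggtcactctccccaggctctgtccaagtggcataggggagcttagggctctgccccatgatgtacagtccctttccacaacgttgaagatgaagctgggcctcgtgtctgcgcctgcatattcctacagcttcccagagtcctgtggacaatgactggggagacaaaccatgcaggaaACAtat
Of the 30 snoRNAs with an SNORD symbol, 19 held both box motifs in these windows, against 67.3% of the 278 SNORD rows of the table. Of the 20 with an SNORA symbol, 18 held the ACA letters, against 89.8% of 147 SNORA rows.

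The comparison asked whether host genes and snoRNAs differed between bryostatin-treated and DMSO-treated cells. Host gene levels leaned higher with bryostatin: 19 of the 20 host genes above 1 FPKM had a positive log2 change, and the largest differences were those of SNHG25, SNHG9, SNHG12 and SNHG19. None passed an adjusted p of 0.05 in limma, where 0.0% of the 11071 genes tested passed. The smallest adjusted p of a host gene was 0.216. At an unadjusted p under 0.05 in limma, 8 host genes were higher and 0 lower, where 10.5% of all genes were higher and 7.18% lower. The median log2 change of host genes was 0.26, against 0.02 over all genes tested, and 53.9% of all genes had a positive change. Changes are bryostatin over DMSO on the log2(FPKM + 1) scale, which understates those of weakly expressed genes. In RNA from whole cultures, more RNA per cell and a larger share of cells with that RNA cannot be told apart.

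**Figure D1:**
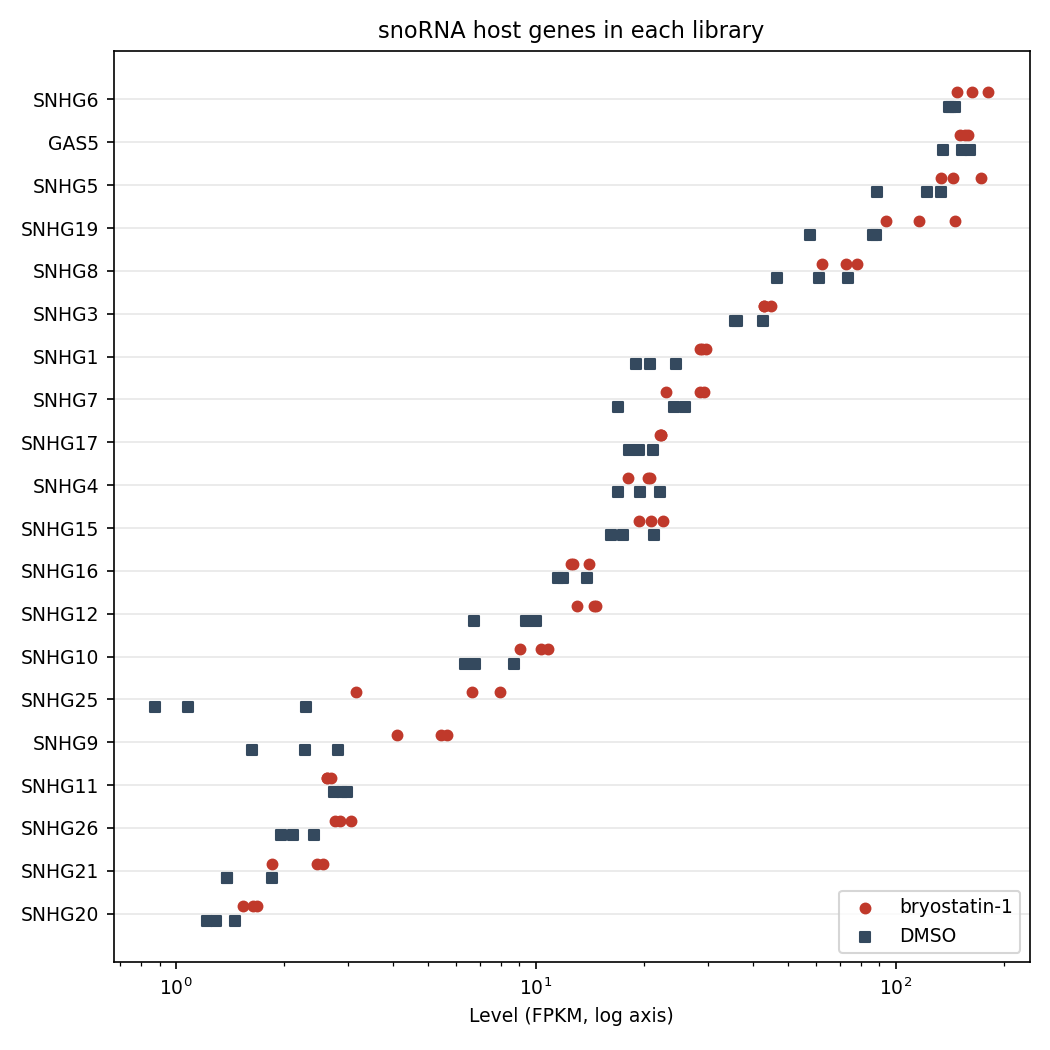
Level of each of the 20 host genes above 1 FPKM in every library, on a log axis in FPKM, with the 3 bryostatin libraries (circles, upper row of each gene) and the 3 DMSO libraries (squares, lower row). In 11 genes all bryostatin points lie right of all DMSO points, and in SNHG11 they all lie left.

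Relative to all DMSO libraries, 11 host genes lay higher in every bryostatin library, where 12.9% of all genes did so. SNHG11 was the 1 host gene that lay lower in every bryostatin library, where 10.7% of all genes did so. Host genes share libraries and are not independent of each other. The mean deviation of the 20 host genes from their own averages was 0.23, 0.22 and 0.08 on the log2 scale in bryostatin libraries 1 to 3, and -0.22, -0.10 and -0.22 in DMSO libraries 1 to 3. These means did not overlap, and the third bryostatin library lay nearest to the DMSO libraries.

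SNHG25 holds SNORD104 in its intron and lies on chromosome 17 from 64145970 to 64146476 (ENSG00000266402). It was at 7.96, 6.65 and 3.17 FPKM in the bryostatin libraries, against 0.876, 2.30 and 1.08 FPKM in the DMSO libraries. The groups did not overlap, and the third bryostatin library was the lowest of its group. The log2 change was 1.49 ± 0.32 (SE), with a 95% interval from 0.73 to 2.25 (adjusted p = 0.216 in limma). Its exons span only 278 bases, and the values rest on 42, 37 and 19 reads with bryostatin and 6, 14 and 6 reads with DMSO.

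SNHG9 holds SNORA78 and lies on chromosome 16 from 1964959 to 1965509 (ENSG00000255198). It was at 5.64, 5.44 and 4.12 FPKM in the bryostatin libraries, against 2.28, 2.82 and 1.63 FPKM in the DMSO libraries. All bryostatin libraries lay above all DMSO libraries, with a log2 change of 0.91 ± 0.16 (SE, adjusted p = 0.216 in limma). It had a mean of 41.8 reads per library.

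SNHG12 holds SNORD99 and several H/ACA snoRNAs and lies on chromosome 1 from 28578538 to 28583132 (ENSG00000197989). It was at 13.0, 14.5 and 14.7 FPKM in the bryostatin libraries, against 6.73, 9.36 and 9.97 FPKM in the DMSO libraries. The groups did not overlap, and the log2 change was 0.65 ± 0.14 (SE, adjusted p = 0.216 in limma) on a mean of 1012 reads per library.

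SNHG19, a transcript of 342 bases that holds SNORD60, lies on chromosome 16 from 2154797 to 2155358 (ENSG00000260260). It was at 116.1, 145.6 and 93.8 FPKM in the bryostatin libraries, against 88.0, 86.1 and 57.7 FPKM in the DMSO libraries. The groups did not overlap, although the lowest bryostatin library lay close to the highest DMSO libraries. The log2 change was 0.61 ± 0.21 (SE, adjusted p = 0.237 in limma).

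SNHG1 holds a row of C/D snoRNAs from SNORD22 to SNORD30 and lies on chromosome 11 from 62851988 to 62855914 (ENSG00000255717). It was at 29.8, 28.97 and 28.6 FPKM in the bryostatin libraries, against 18.9, 20.8 and 24.5 FPKM in the DMSO libraries. The bryostatin libraries were close together and above all DMSO libraries. The log2 change was 0.44 ± 0.11 (SE, adjusted p = 0.216 in limma) on a mean of 1986 reads per library. It was the 1 host gene that passed when the third DMSO library was left out (adjusted p = 0.0438 in limma), a setting in which 267 of all genes passed.

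SNHG10 was at 10.3, 10.8 and 9.03 FPKM in the bryostatin libraries, against 6.78, 6.34 and 8.70 FPKM in the DMSO libraries (log2 change 0.42). SNHG26, which holds SNORD93, was at 3.07, 2.85 and 2.77 FPKM in the bryostatin libraries, against 1.96, 2.12 and 2.41 FPKM in the DMSO libraries (log2 change 0.30). Neither overlapped between the groups. SNHG21 was at 2.55, 2.47 and 1.85 FPKM in the bryostatin libraries, against 1.39, 1.39 and 1.85 FPKM in the DMSO libraries (log2 change 0.37), and 1 library of each group coincided. These 3 genes completed the 8 with an unadjusted p under 0.05 in limma.

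GAS5, SNHG6 and SNHG5 had the highest levels of the host genes. GAS5, a transcript named for its rise in growth-arrested cells, was at 150.8, 155.4 and 158.9 FPKM in the bryostatin libraries, against 160.4, 152.3 and 134.8 FPKM in the DMSO libraries. The groups overlapped, and the log2 change was 0.06. Its 95% interval ran from -0.17 to 0.28 and left out a 2-fold change either way. Its sign turned with quantile normalisation or without the third DMSO library. SNHG6, which holds SNORD87, averaged 163.7 ± 16.3 FPKM with bryostatin and 142.8 ± 2.57 FPKM with DMSO (SD, n = 3 each), without overlap and with a log2 change of 0.19. SNHG5, which holds SNORD50B, was at 172.4, 144.4 and 133.2 FPKM in the bryostatin libraries, against 122.0, 133.3 and 88.8 FPKM in the DMSO libraries. The lowest bryostatin library and the highest DMSO library were nearly equal, and the log2 change was 0.40 with an interval from -0.01 to 0.80.

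Among the other host genes, SNHG3, SNHG17 and SNHG20 lay higher in every bryostatin library, with log2 changes of 0.20, 0.18 and 0.17 at an unadjusted p above 0.05. SNHG17 holds the SNORA71 copies and was at 22.2 ± 0.075 FPKM with bryostatin and 19.5 ± 1.47 FPKM with DMSO (SD, n = 3 each). The groups overlapped for SNHG7, SNHG8, SNHG15 and SNHG16, whose log2 changes were 0.27, 0.24, 0.19 and 0.08. Without the third DMSO library SNHG7 was at 0.094 and SNHG8 at 0.073, without the first SNHG15 was at 0.11, and without the third bryostatin library SNHG16 was at 0.026. SNHG4 was at 19.7 ± 1.48 FPKM with bryostatin and 19.5 ± 2.64 FPKM with DMSO (SD, n = 3 each), a log2 change of 0.02 whose sign turned with TPM scaling or quantile normalisation. SNHG11, which holds SNORA60, was at 2.62, 2.70 and 2.62 FPKM in the bryostatin libraries, against 2.99, 2.89 and 2.75 FPKM in the DMSO libraries. Its groups did not overlap, and its log2 change of -0.09 had an interval from -0.28 to 0.10. The 95% interval lay within 2-fold either way for 17 of the 20 host genes.

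**Figure D2:**
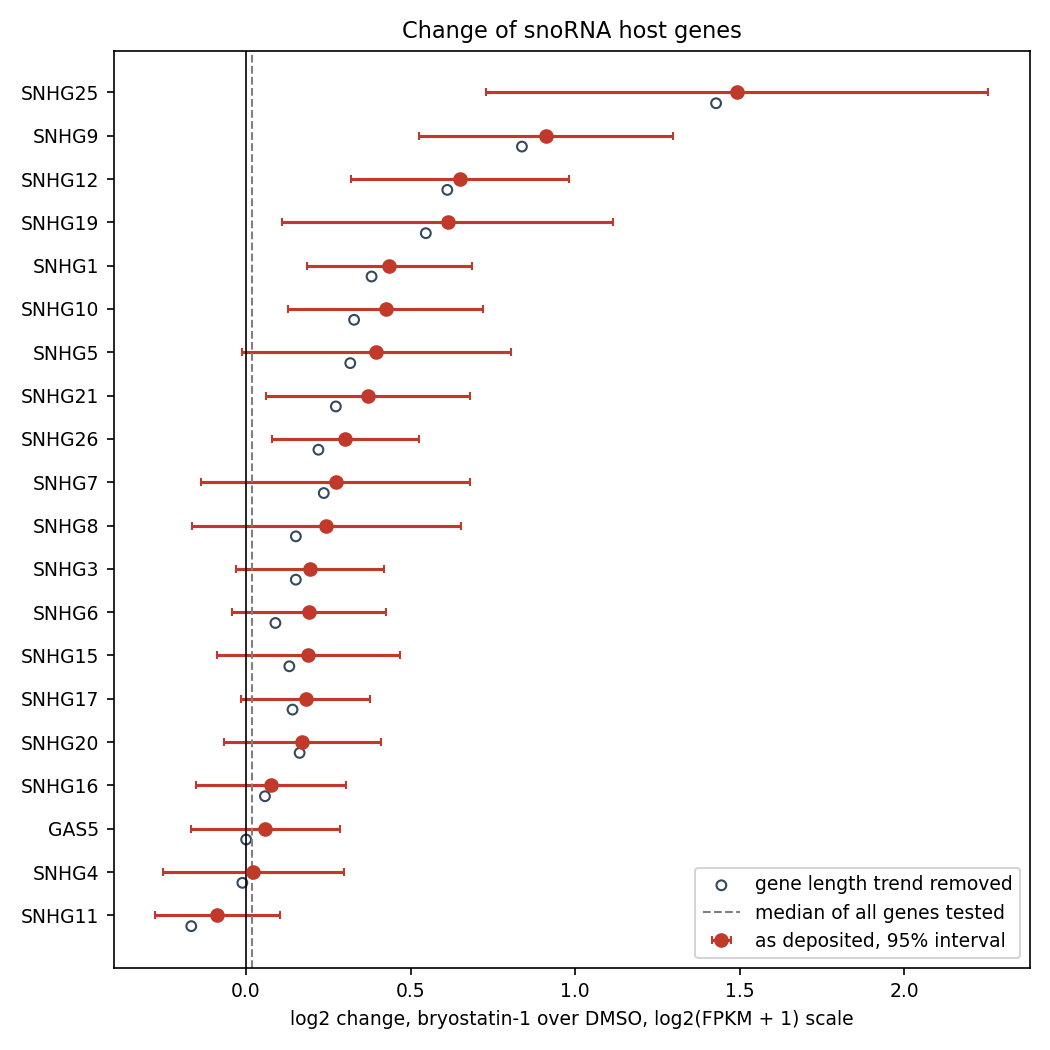
Log2 change of the 20 host genes, bryostatin over DMSO on the log2(FPKM + 1) scale, with 95% limma intervals (filled points and bars) and after removal of a trend on gene length (open points). The dashed line is the median of all genes tested, at 0.02, and SNHG25 at 1.49 lies farthest from it.

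The remaining 6 host rows were below 1 FPKM and were not tested. SNHG22 had a mean of 3.33 reads per library. SNHG14, whose long transcript carries the imprinted SNORD115 and SNORD116 clusters on chromosome 15, had 1.67. One of the 2 rows named SNHG28 had 1 read in a single DMSO library, and the other SNHG28 row, SNHG27 and SNHG18 were listed at 0 in every library.

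Gene length moved with the treatment over the whole table. The median log2 change was 0.11 for the 668 tested genes of 800 to 1600 bases and 0.09 for the 2066 genes of 1600 to 3200 bases. It was -0.04 for the 3319 genes of 6400 bases or more. For the 505 genes under 400 bases, which include SNHG25 and SNHG19, it was 0.07. For the 519 genes of 400 to 800 bases, which include SNHG9, it was 0.04. No tested host gene lay in the longest class, and 10 lay between 3200 and 6400 bases, where the median over 3994 genes was 0.03. At an unadjusted p under 0.05 in limma, 21.0% of genes of 800 to 1600 bases and 17.9% of those of 1600 to 3200 bases were higher. These classes hold 3 and 4 tested host genes. After the trend on length was removed, an alternative added after the data were seen, 18 host genes were higher and their median log2 change was 0.19. SNHG25, SNHG9 and SNHG12 then had changes of 1.43, 0.84 and 0.61. Exons of genes other than snoRNAs lay over exons of 10 of the 20 tested host genes. They lay on the opposite strand for 8 of these hosts and on the same strand for 4. Since no strand setting or counting rule for overlaps is given, reads there cannot be assigned with certainty. These hosts include SNHG10, which an exon of the abundant GLRX5 overlaps, and SNHG12, which TRNAU1AP overlaps. On the same strand, an exon of RCC1 (mean 52.3 FPKM) overlaps SNHG3 and an exon of SEC14L1 (mean 16.8 FPKM) overlaps SNHG20. SNHG25, SNHG9, SNHG19, SNHG1 and SNHG26 had no such overlap with a gene other than a snoRNA. Yet snoRNA rows inside SNHG25, SNHG9 and SNHG1 lie over exons on the same strand, among them SNORA50C in SNHG25 and SNORA78 in SNHG9.

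Whether a snoRNA could be seen in the table went with its place. Of the 943 snoRNA rows, 400 lay only in introns of a gene on the same strand and 148 of these had a read in some library, which is 37.0%. Of the 181 rows that touched an exon of a gene on the same strand 11 had a read, which is 6.08%. Inside the host genes there was a read for 13 of 85 rows in introns and for 0 of 42 rows over exons. Most of these 85 rows lie in SNHG14, which had a mean of 1.67 reads per library. No snoRNA row inside SNHG14 had a read. In the other host genes every intron row had a read except SNORD123 in SNHG18, RF00345 in SNHG19 and RF00570 in SNHG28. The rows without a read include all 7 in SNHG1 and those of SNHG5, SNHG6, SNHG7, SNHG8 and SNHG9. How reads that cover a snoRNA and an exon of its host were counted is not given in the sources used here, so a row at 0 is not evidence that the snoRNA was missing from the cells.

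**Figure D3:**
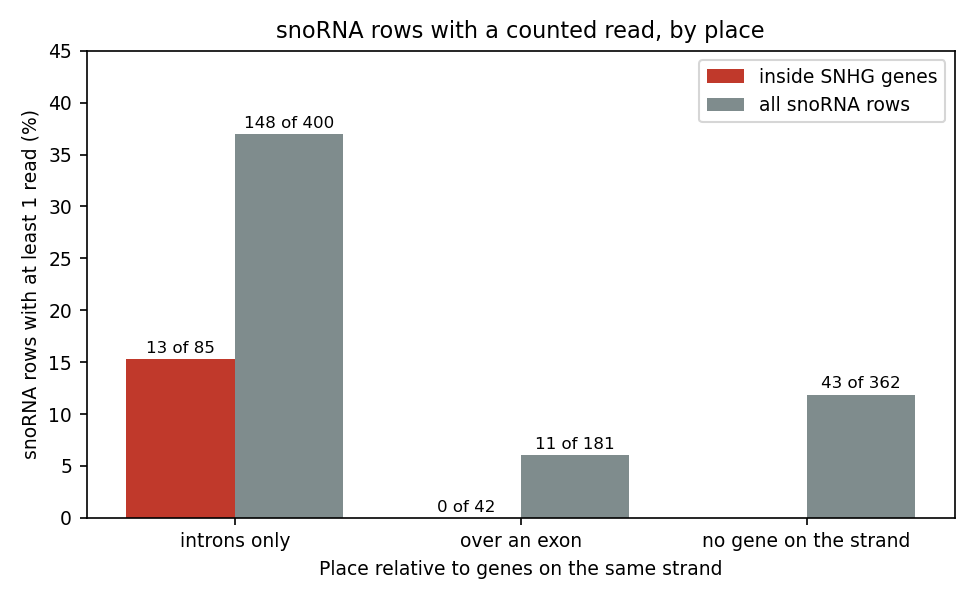
Percentage of snoRNA rows with at least 1 read in any library, by place relative to genes on the same strand, for rows inside the SNHG host genes (left bars) and for all snoRNA rows (right bars). The numbers above the bars count rows with a read of all rows. Rows over exons had reads in 0 of 42 cases inside the host genes and in 11 of 181 cases overall. Most intron rows inside the host genes lie in SNHG14, where no snoRNA row had a read.

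The 57 snoRNAs of at least 1 FPKM were 30 with an SNORD symbol, 20 with an SNORA symbol and 7 named by an Rfam family. They lay in introns of a host in 49 cases, over an exon in 1 (SNORD37 in EEF2) and in no gene on the same strand in 7. The hosts were 40 genes, 37 snoRNAs lay in protein-coding genes and 12 in genes of ribosomal proteins. Only 9 lay inside an SNHG gene. Their median length was 128 bases, and 3870 reads in all 6 libraries supported them. The median snoRNA had a mean of 6.5 reads per library, 22 had at least 10, and 11 had 0 reads in at least 1 library. In a gene of 70 bases, as long as SNORD104, 1 read is worth 0.580 to 0.753 FPKM, so most single values carry a large counting error. snoRNAs have no poly(A) tail, and reads from the mature RNA and from unspliced host RNA cannot be told apart here.

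In limma 0 of the 57 snoRNAs had an adjusted p under 0.05, and the lowest value among them was 0.216. At an unadjusted p under 0.05 in limma 11 were higher and 2 lower with bryostatin, where 10.5% of all genes were higher and 7.18% lower. Counts over these snoRNAs only describe them, because 6 reached the mean of 1 FPKM through the bryostatin libraries alone and 2 through the DMSO libraries alone. Of all 57, 39 had a positive log2 change, with a median of 0.24, where 53.9% of all genes had a positive change. In the 22 with at least 10 reads per library 18 had a positive log2 change, with a median of 0.44. In the 35 with fewer reads 21 did, with a median of 0.07. Among SNORD rows 23 of 30 were positive and among SNORA rows 14 of 20.

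SNORD104, in the intron of SNHG25, had the highest level of all snoRNAs. It was at 96.4, 54.3 and 56.9 FPKM in the bryostatin libraries, from 128, 76 and 86 reads, against 25.5, 38.5 and 17.8 FPKM in the DMSO libraries, from 44, 59 and 25 reads. The groups did not overlap, and the log2 change was 1.33 ± 0.31 (SE, adjusted p = 0.216 in limma) with an interval from 0.59 to 2.06. The ratio of SNORD104 reads to SNHG25 reads was 2.96 over the bryostatin libraries and 4.92 over the DMSO libraries, on 98 and 26 SNHG25 reads. Within libraries it ranged from 2.05 to 4.53 with bryostatin and from 4.17 to 7.33 with DMSO, so the ratios overlapped.

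SNORD99, in SNHG12, had 31, 13 and 20 reads in the bryostatin libraries, against 2, 8 and 14 reads in the DMSO libraries. The groups overlapped by 1 library, and the log2 change of its level was 1.52 with an interval from 0.15 to 2.88. SNORD93, in SNHG26, had 12, 11 and 5 reads in the bryostatin libraries, against 8, 1 and 2 reads in the DMSO libraries, also with overlap (log2 change 1.34, interval 0.20 to 2.48). For SNORD104, SNORD99 and SNORD93 the host was among the 8 host genes with an unadjusted p under 0.05.

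SNORA74D had 9, 8 and 10 reads in the bryostatin libraries, against 5, 5 and 1 reads in the DMSO libraries, without overlap and with a log2 change of 1.02. It was among the 2 snoRNAs that passed without the third DMSO library (adjusted p = 0.0438 in limma). Its host SNHG4 had a log2 change of 0.02. SNORA73B, an H/ACA snoRNA of ribosomal RNA cleavage that lies in introns of both SNHG3 and RCC1, had 74, 51 and 68 reads in the bryostatin libraries, against 47, 58 and 54 reads in the DMSO libraries, and its levels overlapped (log2 change 0.37). SNORA71A, SNORA71B and SNORA71C in SNHG17 had log2 changes of -0.24, -0.58 and 0.56 with overlap in each, and SNORA60 in SNHG11 had -0.11. The copies of SNORA71 are related in sequence, so their reads are uncertain.

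Outside the SNHG genes, SNORD101 and SNORD100 lie in introns of RPS12, whose log2 change was 0.09. SNORD101 had 15, 27 and 20 reads in the bryostatin libraries, against 9, 13 and 11 reads in the DMSO libraries, without overlap and with a log2 change of 0.92. SNORD100 had 24, 11 and 29 reads in the bryostatin libraries, against 13, 8 and 12 reads in the DMSO libraries, and its levels overlapped (log2 change 0.91). SNORA33, from the same gene, had a log2 change of 0.09. SNORD20, in the nucleolin gene NCL, had 12, 10 and 7 reads in the bryostatin libraries, against 7, 2 and 2 reads in the DMSO libraries. Its levels in FPKM did not overlap (log2 change 1.30).

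**Figure D4:**
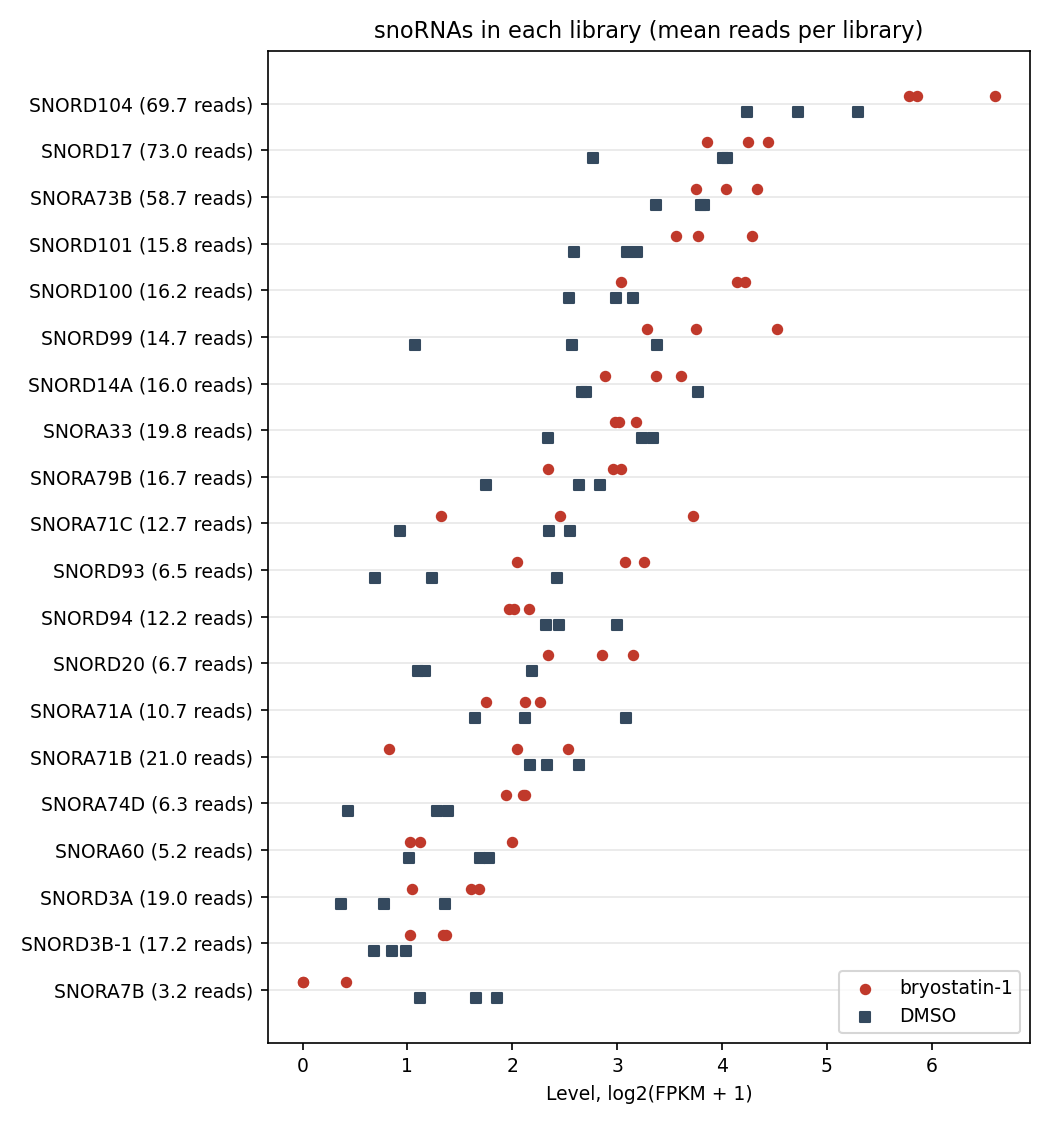
Level of 20 snoRNAs in every library on the log2(FPKM + 1) scale, with bryostatin libraries as circles in the upper row of each gene and DMSO libraries as squares in the lower row. The mean number of reads per library stands beside each name, from 73.0 for SNORD17 to 3.2 for SNORA7B.

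U3, the C/D snoRNA of ribosomal RNA cleavage, has genes of its own. Its copies SNORD3A and SNORD3B-1 had 14, 31 and 31 and 22, 24 and 17 reads in the bryostatin libraries, against 5, 11 and 22 and 15, 10 and 15 reads in the DMSO libraries. The levels of SNORD3A overlapped (log2 change 0.61), and those of SNORD3B-1 did not (0.40). Both reached the mean of 1 FPKM through the bryostatin libraries alone. Reads of these near-identical copies cannot be assigned with certainty, and the table gives them lengths of 699 and 758 bases. Among the other snoRNAs with the most reads, SNORD17, SNORA79B and SNORD14A had log2 changes of 0.57, 0.37 and 0.24, with overlap in each. With 1 library left out they were as low as 0.15 for SNORD17 and 0.051 for SNORD14A without the first DMSO library and 0.039 for SNORA79B without the third.

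Of the 57 snoRNAs, 6 lay higher in every bryostatin library, where 12.9% of all genes did, and SNORD94 and SNORA7B were the 2 that lay lower, where 10.7% of all genes did. SNORD94, in PTCD3, had 9, 8 and 9 reads in the bryostatin libraries, against 15, 21 and 11 reads in the DMSO libraries, with a log2 change of -0.54 and an adjusted p of 0.228 in limma. SNORA7B, in the pseudogene RPL32P3, had 0, 0 and 1 reads in the bryostatin libraries, against 4, 8 and 6 reads in the DMSO libraries. It reached the mean of 1 FPKM through the DMSO libraries alone, at 0.111 FPKM with bryostatin and 1.98 FPKM with DMSO, so a difference was built into its selection. Over the 50 snoRNAs with a host, 24 had a positive log2 change together with their host and 4 a negative one. Another 10 were positive with a negative host and 12 negative with a positive host. Most snoRNAs and most hosts were positive, so many joint positives would arise without a relation, which was not tested. The pairs hold 40 distinct hosts, and some host changes lie near 0, such as -2.8e-04 for RPL32P3 and 0.0027 for ZFAS1. SNORA73B was paired here with RCC1 (0.52).

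Summed over all members, host genes took 2157, 2178 and 2084 CPM, recovered reads scaled to the library total, in the bryostatin libraries, against 1882, 1966 and 1733 CPM in the DMSO libraries. The 57 snoRNAs took 40.1, 32.9 and 35.0 CPM in the bryostatin libraries, against 20.2, 31.9 and 26.2 in the DMSO libraries. Neither sum overlapped. When SNORD104 was taken out of the 57, the sums were 33.5, 29.03 and 31.0 CPM with bryostatin and 18.4, 29.1 and 24.9 with DMSO, which overlapped. RN7SL2, the RNA of the signal recognition particle and likewise without a poly(A) tail, was at 252.1, 172.9 and 89.1 CPM with bryostatin and 55.3, 117.8 and 11.8 with DMSO. It was the lowest of its group in the third library of each group. Of 14 RNAs without a tail that were examined, 2 reached a mean of 1 FPKM, RN7SL2 and SNORD3A. RN7SL1, RN7SK, RMRP and RPPH1 were listed at 0 in every library. The rows of small nuclear RNAs, another class without a tail, summed to 15.3, 15.5 and 15.5 CPM with bryostatin and 15.6, 21.98 and 15.5 with DMSO. Rows with the biotype scaRNA summed to 1.19, 1.37 and 1.17 CPM with bryostatin and 0.82, 1.64 and 1.11 with DMSO, which overlapped. The nuclear-retained RNAs MALAT1, NEAT1, TUG1 and KCNQ1OT1 together were at 553.5, 391.3 and 518.3 CPM with bryostatin and 516.0, 610.5 and 455.6 with DMSO, which overlapped. The part that carry-over of RNA without a tail has in the snoRNA values was not tested.

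**Figure D5:**
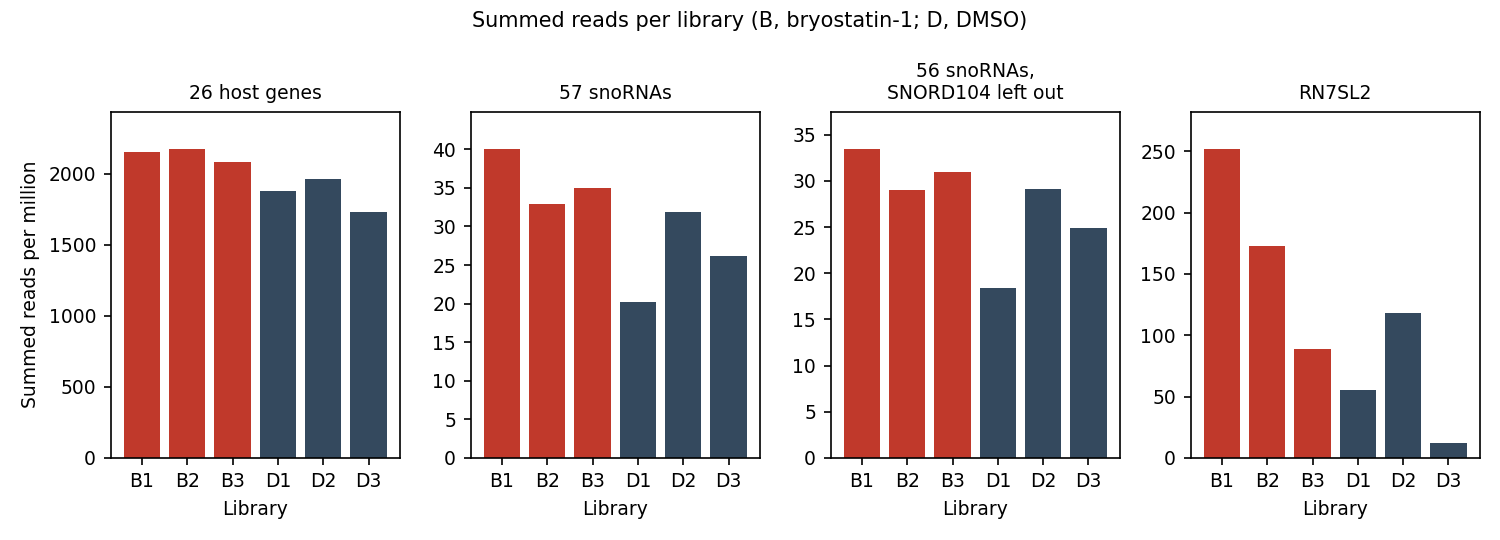
Summed CPM in each library for the host genes, the snoRNAs, the snoRNAs without SNORD104 and RN7SL2, with bryostatin libraries B1 to B3 left of DMSO libraries D1 to D3 and each axis starting at 0. The sums of host genes and of the 57 snoRNAs do not overlap between the groups, and those without SNORD104 and of RN7SL2 do.

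The transcripts of proteins that bind snoRNAs leaned higher as well, though none passed an adjusted p of 0.05 in limma. Levels here are of RNA, and protein was not measured. Transcripts of all 4 core proteins of H/ACA particles were higher in every bryostatin library, where 12.9% of all genes were, with a median log2 change of 0.49. GAR1 averaged 22.7 ± 3.46 FPKM with bryostatin and 13.4 ± 0.373 FPKM with DMSO (SD, n = 3 each), a log2 change of 0.71 ± 0.11 (SE, adjusted p = 0.216 in limma). NHP2 averaged 100.1 ± 9.81 FPKM with bryostatin and 65.8 ± 7.47 FPKM with DMSO (SD, n = 3 each), with a log2 change of 0.60. NOP10 and the pseudouridine synthase DKC1 had 0.38 and 0.28. Transcripts of the 4 core proteins of C/D particles had a median of 0.27, and 3 of them did not overlap. The methyltransferase FBL had 0.28, NOP56 0.39, SNU13 0.25 and NOP58, which overlapped, 0.26.

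In this and the next list, 53.9% of all genes having a positive change is the share to compare with. Of 23 genes of particle assembly and snoRNA processing, 17 were higher and 6 lower, with a median log2 change of 0.13. At an unadjusted p under 0.05 in limma 6 were higher and 1 lower, where 10.5% and 7.18% of all genes were. The assembly ATPases RUVBL1 and RUVBL2 had log2 changes of 0.36 and 0.42, and DBR1, which opens the intron lariats that carry snoRNAs, had 0.39. The exonuclease XRN1 had -0.24, and NOLC1, the most abundant of these genes, had 0.13 with overlap. Of 15 nonsense-mediated decay factors 12 were higher and 3 lower, with a median of 0.07, against 0.02 over all genes tested. At an unadjusted p under 0.05 in limma 2 of them were higher and 1 lower, beside the same shares of all genes. MAGOH, of the exon junction complex, averaged 22.2 ± 4.77 FPKM with bryostatin and 12.1 ± 2.80 FPKM with DMSO (SD, n = 3 each), while the kinase SMG1 had a log2 change of -0.22. EIF4A3, UPF1, PNRC2 and SMG5 had 0.29, 0.22, 0.14 and 0.07.

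The other hosts of snoRNAs were examined in 3 sets. Of 22 protein-coding hosts 11 were higher and 11 lower, with a median log2 change of 0.01, and 4 lay lower and 2 higher in every bryostatin library, where 10.7% of all genes were lower and 12.9% higher in this way. Of 33 hosts found by coordinates, which share members with that set, 21 were higher and 12 lower, with a median of 0.05, where 53.9% of all genes were higher. RCC1 (0.52) was left out of the 33, because SNORA73B also lies in SNHG3, and the highest change among them was 0.48. The elongation factor EEF2 averaged 1712 ± 91.1 FPKM with bryostatin and 2105 ± 260.8 FPKM with DMSO (SD, n = 3 each), a log2 change of -0.29 without overlap. RPL4 had -0.19, RPL13A 0.04, NCL 0.32 and NOP56, given above, 0.39. The long noncoding hosts ZFAS1, DANCR and EPB41L4A-AS1 had log2 changes of 0.0027, 0.04 and 0.0070, with overlap in each. A test of the difference between these hosts and the SNHG genes was not run.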

How the data were processed

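Libraries were prepared from column-purified RNA after poly(A) selection, per the labels' protocols. The deposited values are FPKM, beside each gene's length. CASAVA, HISAT2 2.0.5, DESeq2 1.20.0, featureCounts 1.5.0-p3 and hg38 are named, without a role, by the submitters' processing notes. The strand setting is not given in the sources used here. Coordinates of all 58735 genes matched GENCODE release 29. Multiplying FPKM by length and dividing by the library's smallest step gave whole numbers for 100% of values, within 0.001, and these were used as reads. A count of 0 allows up to 3 reads, and such limits cover counting error only.

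The mean had to reach 1 FPKM, which left 11071 genes. They were compared as log2(FPKM + 1) by the limma 3.58.1 moderated test with an intensity trend in R 4.3.3, and Benjamini-Hochberg adjustment ran over all of them with a threshold of 0.05. The fit was tested on simulated data. Members and lists were chosen with earlier results of these data known. Genes were named by rule: the host genes above 1 FPKM, the 10 snoRNAs with the most reads, up to 8 per direction with the smallest unadjusted p under 0.05, those inside host genes, and per list the 4 smallest p and 2 most abundant members. A snoRNA that the rule names is not reported here. A snoRNA's place was taken from GENCODE exons. The smallest chi-square between 2 libraries was 13.5 per gene, so none was a duplicate. Alternatives covered the pseudocount, the filter, scaling, the trend, voom on the recovered reads, a replicate block, each library left out, and trends on length and GC content.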

Additional observations from a re-analysis of the deposited data

How the results depend on the processing

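No host gene or snoRNA passed an adjusted p of 0.05 under any alternative that kept all 6 libraries, while pseudocount 0.1 and TPM each gave 1 passing gene among all genes. Without DMSO replicate 3, 267 genes passed, among them SNHG1 (adjusted p = 0.0438) and SNORA74D (0.0438), and over the libraries left out in turn the number ran from 0 to 267 for all genes, 0 to 1 for host genes and 0 to 2 for snoRNAs. Positive changes of host genes numbered 17 to 19 of 20 under every alternative, and their median ran from 0.21 to 0.33 with each library left out (lowest without DMSO replicate 3, highest without bryostatin replicate 3). Quantile normalisation gave 0.19, and removal of the trend on length or on GC content, both added after the data were seen, gave 0.19 and 0.21. The filter at 10 reads left 22 snoRNAs, 18 of them positive, because fewer were tested. With libraries left out, positive snoRNAs ran from 33 to 46 of 57 and their median from 0.06 to 0.44.

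The log2 change of GAS5 turned to -0.072 with quantile normalisation and ran from -0.012 to 0.11 with libraries left out. That of SNHG4 turned to -0.025 with TPM, -0.054 with quantile normalisation and -0.011 with the length trend removed, and ran from -0.073 to 0.11. With libraries left out, SNORA33 ran from -0.23 to 0.27, SNORA71C from -0.054 to 1.15, SNORA71A from -0.56 to 0.16 and SNORA60 from -0.42 to 0.065. The cause was not tested. Of 41 members followed, 35 kept their sign throughout. The correlation of deviations between same-numbered libraries was -0.29, -0.32 and -0.11, and between the others it ran from -0.064 to 0.32. Deviations from the mean of 3 libraries constrain each other, so these values cannot decide whether the numbers pair the libraries. With the replicate number as a block 0 host genes, 0 snoRNAs and 0 of all genes passed, and the medians stayed at 0.26 and 0.24. Depth limits the snoRNA values, of which 35 of 57 rest on a mean under 10 reads per library.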
